A study of Homo sapiens with 20 samples.

Results

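The genes described here are the collagens (symbols of the form COLnAn), the matrix metalloproteinases (MMP) and the ADAMTS proteases, chosen by symbol alone. Both expression tables held 86 of them among 45372 gene symbols: 44 collagen chain genes, 23 MMP genes and 19 ADAMTS genes. All of the RNA came from HEK293T, a transformed embryonic kidney line with the SV40 large T antigen. Cells received siRNA against HUWE1, which encodes a HECT-domain ubiquitin ligase, or non-targeting (NT) siRNA, and poly(A) RNA was sequenced. The 20 libraries form 5 groups of 4 biological replicates: HUWE1 siRNA of set 1 and its NT controls in the first table, and HUWE1 siRNA of set 2, HUWE1 siRNA of set 3 and the 4 NT libraries that serve both in the second table. Set 1 stands for the libraries that carry no set number, and no label says what separates the sets. The cells are one cultured line, so the knockdown was measured without the fibroblasts, chondrocytes and basement membranes in which most of these genes are usually studied.

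Collagens are trimers of rod-shaped chains that wind into a triple helix in the endoplasmic reticulum, leave the cell as procollagen, and assemble outside it. Fibrillar collagens (types I, II, III, V, XI) build cables, type IV builds the meshwork of basement membranes, type VI builds beaded microfilaments next to them, and the fibril-associated collagens coat fibrils. MMPs are zinc endopeptidases, secreted or held at the cell surface, that cut matrix proteins, and ADAMTS proteases are secreted relatives with thrombospondin repeats that trim procollagen, cleave proteoglycans or process other secreted proteins.

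Levels are TPM, which correct for transcript length and library size, so that levels can be set side by side between genes. HUWE1 averaged 85.0 ± 1.72 TPM in HUWE1 siRNA libraries of set 1, against 157.2 ± 3.57 TPM in their NT libraries (SD, n = 4 each). It averaged 94.6 ± 2.26 TPM in set 2 and 84.8 ± 5.42 TPM in set 3, against 163.3 ± 3.49 TPM in the shared NT libraries (SD, n = 4 each). Each knockdown left between 51.9% and 57.9% of the control level, and each had p = 0.0286 in an exact two-sided permutation test, the smallest that 4 against 4 libraries can give. All 9 HEK293 lineage markers (such as NEFM, CDH2 and PAX2) averaged 1 TPM or more in every group. The lineage sum, most of it VIM, was 908.8 to 945.3 TPM in HUWE1 siRNA libraries of set 1, against 1016.4 to 1071.3 TPM in NT libraries, without overlap. NEFM averaged 98.8 ± 3.68 TPM in those HUWE1 siRNA libraries, against 150.7 ± 6.21 TPM in NT libraries (SD, n = 4 each), while CDH2 averaged 121.1 ± 2.06 TPM in HUWE1 siRNA libraries and 106.7 ± 3.10 TPM in NT libraries (SD, n = 4 each). In the second table the lineage sum was 1168.9 to 1378.1 TPM in set 2 and 1285.8 to 1379.7 TPM in set 3, against 1144.3 to 1336.6 TPM in NT libraries, and all overlapped. Of 10 fibroblast markers, between 4 and 6 averaged 1 TPM or more, with LUM and TWIST2 among them and DCN, FAP and POSTN below that level. Their summed level was 22.8 to 23.7 TPM in HUWE1 siRNA libraries of set 1, against 21.7 to 22.1 TPM in NT libraries. Members of that sum differed in direction: LUM averaged 7.11 ± 0.566 TPM in HUWE1 siRNA libraries and 5.03 ± 0.941 TPM in NT libraries, and TAGLN 4.54 ± 0.265 TPM in HUWE1 siRNA libraries and 5.85 ± 0.517 TPM in NT libraries (SD, n = 4 each). In the second table the fibroblast sum was 23.3 to 23.8 TPM in set 2 and 22.7 to 24.1 TPM in set 3, against 20.7 to 23.6 TPM in NT libraries. The part of these marker levels in the collagen results was not tested. In bulk RNA, fewer expressing cells and less RNA per cell cannot be told apart. The shared NT libraries 1 and 4 stood apart, with a correlation of 0.980 between their log2 values, while the lowest within any other group was 0.992.

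A member was taken as expressed where its mean over NT libraries was 1 TPM or more. That held for 56 of 86 members in set 1 controls (30 collagens, 11 MMPs, 15 ADAMTS genes) and for 49 in the shared controls (26 collagens, 7 MMPs, 16 ADAMTS genes). Both tables had 48 expressed members, and 29 were expressed in neither. COL6A1 averaged 95.7 ± 2.29 TPM in set 1 controls and 75.7 ± 1.58 TPM in the shared controls (SD, n = 4 each), and led the first. It was followed in the set 1 controls by ADAMTS1 (77.0 TPM), COL6A2 (60.9 TPM), COL2A1 (57.1 TPM) and ADAMTS13 (29.7 TPM). The same genes, apart from ADAMTS13 at 17.4 TPM, held the first 4 places in the shared controls, where ADAMTS1 (76.6 TPM) and COL6A1 were level within their spread and COL4A2 (28.1 TPM) and COL18A1 (24.2 TPM) came next. COL6A1 and COL6A2, the type VI chains, and COL2A1, the cartilage fibril chain, thus supplied the most collagen RNA. MMPs were lower: MMP2, a gelatinase, averaged 12.5 TPM and the membrane-bound MMP15 12.4 TPM in set 1 controls, and no other MMP reached 10 TPM in either control group.

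Chain partners were not matched in level. COL1A1, the first chain of type I collagen, averaged 10.8 TPM in set 1 controls and 7.02 TPM in the shared controls. Its partner COL1A2 never exceeded 0.0439 TPM in any of the 20 libraries and was listed at 0 in 10 of them. COL6A3, the longest of the common type VI chains, averaged 1.31 TPM in set 1 controls and 0.646 TPM in the shared controls. Of the type IV pairs, COL4A1 with COL4A2 and COL4A5 with COL4A6 were expressed in both tables, while COL4A4 was expressed (2.36 and 1.86 TPM) and COL4A3 was not.

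The members under 1 TPM in both control groups were ADAMTS4, ADAMTS12 and ADAMTS14; MMP1, MMP3, MMP7, MMP8, MMP9, MMP12, MMP19, MMP20, MMP21, MMP26, MMP27 and MMP28; and COL1A2, COL4A3, COL5A3, COL6A6, COL8A1, COL8A2, COL9A1, COL10A1, COL11A1, COL15A1, COL17A1, COL19A1, COL20A1 and COL22A1. MMP27 was listed at 0 in all 20 libraries, MMP26 in 19 and MMP20 in 18. Of the 9 MMP genes clustered on chromosome 11 (102520508 to 102955734, GRCh38), only MMP13 and the stromelysin gene MMP10 averaged 1 TPM or more in set 1 controls, and none did in the shared controls. MMP13, a collagenase that cuts intact fibrils, averaged 3.76 ± 0.282 TPM in set 1 controls and 0.534 ± 0.432 TPM in the shared controls (SD, n = 4 each), and these tables were normalized separately. Expressed in set 1 controls alone were MMP10, MMP13, MMP24, MMP25, COL6A3, COL6A5, COL16A1 and COL28A1, and in the shared controls alone ADAMTS8. The threshold fell among close values: MMP25 averaged 1.04 TPM and COL5A3 0.888 TPM in set 1 controls, while ADAMTS8 averaged 1.03 TPM and MMP25 0.984 TPM in the shared controls.

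**Figure D1:**
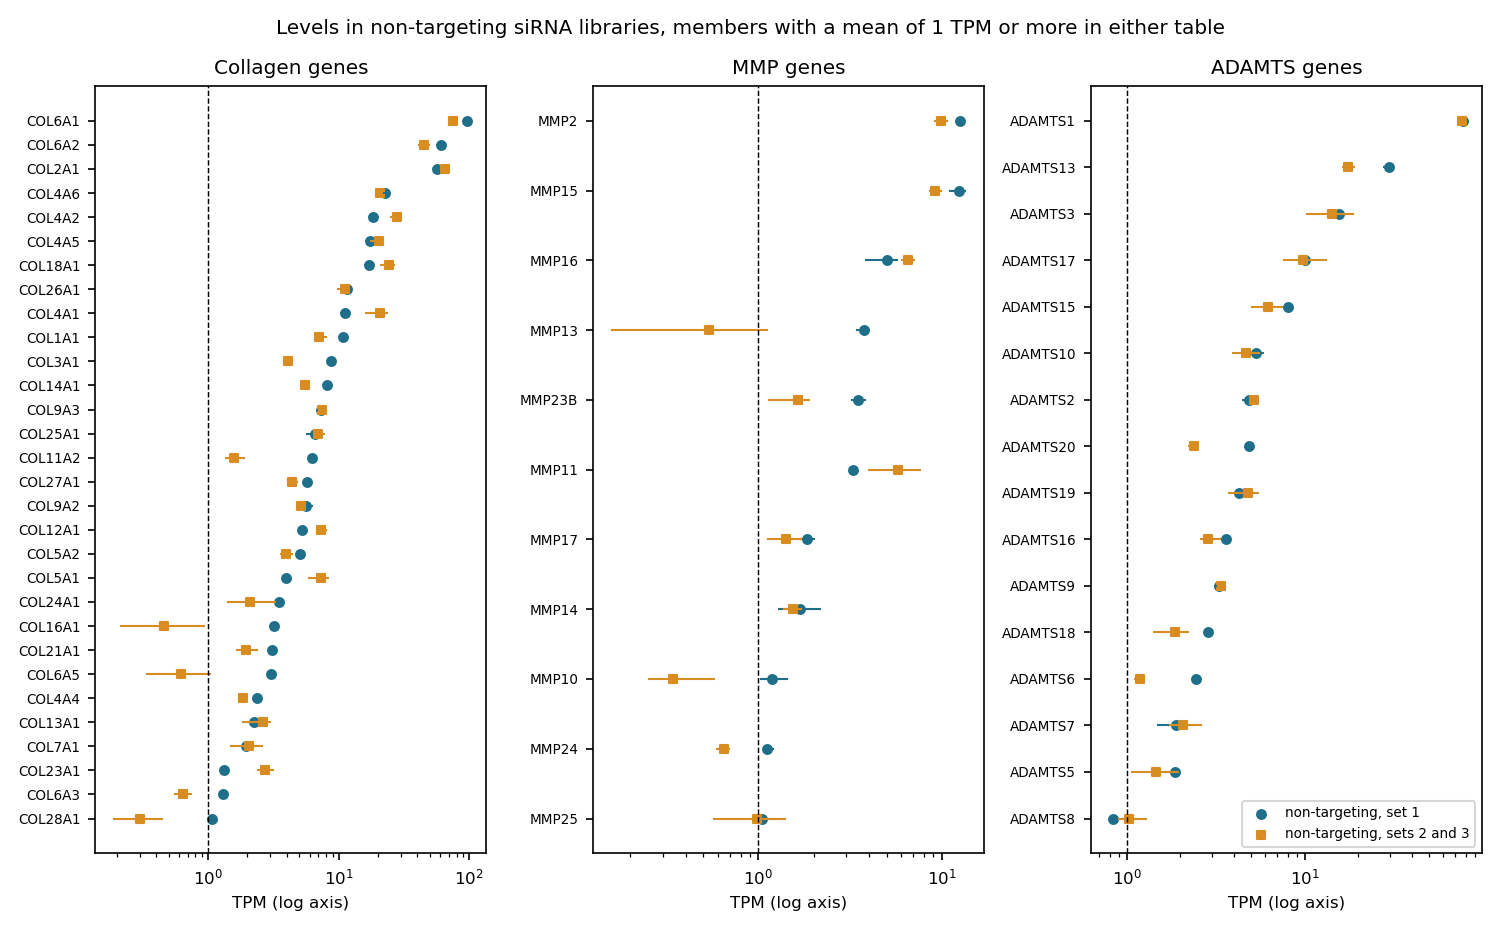
Mean TPM (log axis) of every member with a control mean of 1 TPM or more in either table, in NT libraries of set 1 (circles) and in NT libraries of sets 2 and 3 (squares). Lines run from the lowest to the highest of 4 libraries and the dashed line marks 1 TPM; COL6A1 and ADAMTS1 lead their families in both tables, and MMP13 is at 3.76 TPM in one and 0.534 TPM in the other.

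The sequences below lie just upstream of the annotated starts of COL6A2 and COL27A1, which were called higher in sets 1 and 3, and of COL4A5, which starts back to back with COL4A6. They come from RefSeq on GRCh38.p14, plus strand, and are shown so that the letters next to the genes of the main results can be read. Of the 86 members, 56 had an entry in that table; COL6A1, ADAMTS1, MMP2 and MMP13 did not. Capitals mark the GC box GGGCGG or the CCAAT box, on either strand. The COL6A2 window (chr21:46097862-46098096) was 235 bases, and the COL27A1 (chr9:114155287-114155536) and COL4A5 (chrX:108439588-108439837) windows were 250 bases each.
COL6A2: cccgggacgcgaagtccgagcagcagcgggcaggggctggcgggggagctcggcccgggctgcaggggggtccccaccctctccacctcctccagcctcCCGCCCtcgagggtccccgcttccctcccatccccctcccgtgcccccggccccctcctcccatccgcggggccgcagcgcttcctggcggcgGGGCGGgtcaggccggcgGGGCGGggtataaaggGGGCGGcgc
COL27A1: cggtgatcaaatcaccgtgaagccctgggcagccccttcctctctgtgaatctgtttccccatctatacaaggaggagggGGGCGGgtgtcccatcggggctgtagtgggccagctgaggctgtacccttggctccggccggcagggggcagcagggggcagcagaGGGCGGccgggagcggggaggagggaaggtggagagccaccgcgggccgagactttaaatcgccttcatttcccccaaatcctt
COL4A5: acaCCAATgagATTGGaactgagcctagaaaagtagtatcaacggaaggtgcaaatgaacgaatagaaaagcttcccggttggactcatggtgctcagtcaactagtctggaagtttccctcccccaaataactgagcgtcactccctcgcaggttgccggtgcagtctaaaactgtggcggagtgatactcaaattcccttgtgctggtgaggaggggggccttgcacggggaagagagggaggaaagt

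The COL6A2 window held 4 GC boxes and 1 TATAAA, the COL27A1 window held 2 GC boxes, and the COL4A5 window held 2 CCAAT boxes. The background was 35116 upstream entries of all genes, with a window of 250 bases before the start. Of these entries, 42.6% held a GC box, 32.0% a CCAAT box, 10.7% TATAAA and 6.34% the E-box CACGTG. The E-box was in none of the windows shown, and the COL6A2 window was shorter, at 235 bases. These matches describe letters and were not tested as binding sites.

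In set 1, collagen genes were 10 of the 15 members that rose after HUWE1 siRNA, and were also 30 of the 55 members tested. Of the 30 tested collagen genes 10 rose and 0 fell. Of the 10 tested MMPs 4 rose and MMP2 fell, and of the 15 tested ADAMTS genes 1 rose and 2 fell. In all, 15 members rose and 3 fell of the 55 that passed the filter of 1 TPM in at least 4 libraries. That is 32.7% called, against 30.3% of all 16057 genes tested, where 12.3% rose and 17.9% fell. Calls are at a Benjamini-Hochberg adjusted p under 0.05 from limma on log2(TPM + 1), over all genes tested. The median log2 fold change was 0.10 for tested collagens and 0.01 for tested members, against -0.01 for all genes. The 4 values lay wholly above the controls for 15 members and wholly below for 4, against 13.3% and 18.4% of all genes. The share of members called in either direction was thus close to that of genes in general. By direction it was not: 15 of 55 rose, against 12.3% of genes, and 3 of 55 fell, against 17.9%.

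Among the collagen classes, type VI had the largest difference in summed level. COL6A1 (chromosome 21, 45981737 to 46005050, GRCh38) had 119, 136, 131 and 128 TPM in HUWE1 siRNA libraries, against 98.9, 94.0, 94.1 and 95.8 TPM in NT libraries. COL6A2, 93046 bases downstream on the same strand (46098097 to 46132849), had 74.2, 86.0, 80.9 and 76.8 TPM in HUWE1 siRNA libraries, against 61.7, 59.1, 60.2 and 62.7 TPM in NT libraries. For both genes every HUWE1 siRNA library lay above every NT library. The log2 fold changes were 0.42 ± 0.04 (SE, limma adjusted p = 1.05e-04) for COL6A1 and 0.38 ± 0.04 (limma adjusted p = 3.34e-04) for COL6A2. COL6A3, at about 1 TPM, had the opposite order, with 0.979 ± 0.0776 TPM in HUWE1 siRNA libraries and 1.31 ± 0.0611 TPM in NT libraries (SD, n = 4 each); its 4 values also did not overlap, and it was not called (limma adjusted p = 0.0541). Summed over its 5 genes, type VI RNA was 198.2 to 227.2 TPM in HUWE1 siRNA libraries, against 157.8 to 165.2 TPM in NT libraries.

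Within type IV, 1 gene was called of each neighbouring pair whose genes were both expressed. COL4A5, a chain of the kidney and skin meshwork, had 19.6, 21.9, 20.8 and 20.6 TPM in HUWE1 siRNA libraries, against 17.8, 17.2, 18.2 and 17.0 TPM in NT libraries. It rose by 0.23 ± 0.04 on the log2 scale (SE, limma adjusted p = 0.00249), and its groups did not overlap. Its head-to-head neighbour COL4A6, whose annotated starts lie 379 and 1415 bases from that of COL4A5, averaged 21.7 ± 0.286 TPM in HUWE1 siRNA libraries and 22.6 ± 0.753 TPM in NT libraries (SD, n = 4 each) and was not called (log2 -0.05, limma adjusted p = 0.243). COL4A1 rose by 0.20 ± 0.06 (SE, limma adjusted p = 0.0214), with 11.8 to 13.8 TPM in HUWE1 siRNA libraries and 10.4 to 11.7 TPM in NT libraries. COL4A2 lies on the other strand, with an annotated start 126 bases from that of COL4A1. In GENCODE the 2 gene spans overlap (COL4A1 ends at 110307233 and COL4A2 begins at 110305812). COL4A2 averaged 17.4 TPM in HUWE1 siRNA libraries and 18.3 TPM in NT libraries and was not called (limma adjusted p = 0.229). No source used here states whether the counting used strand, so reads of these overlapping ends may be shared. The COL4A1 call was lost without HUWE1 siRNA replicate 2 or 4 or NT replicate 3 (log2 0.17 to 0.18, limma adjusted p = 0.0553 to 0.0629).

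Among fibrillar and fibril-associated chains, COL3A1, the reticular fibre chain, had 10.3, 10.6, 11.5 and 10.7 TPM in HUWE1 siRNA libraries, against 8.38, 8.44, 8.99 and 9.001 TPM in NT libraries. It rose by 0.28 ± 0.05 (SE, limma adjusted p = 0.0019) with no overlap. COL27A1, a fibrillar chain of developing cartilage, had 6.74, 8.06, 6.86 and 6.96 TPM in HUWE1 siRNA libraries, against 5.75, 5.46, 5.63 and 5.92 TPM in NT libraries, and rose by 0.28 ± 0.06 (SE, limma adjusted p = 0.00595). COL14A1 and COL9A3, both fibril-associated, rose by 0.25 and 0.26 (limma adjusted p = 0.00141 and 0.00429), and COL18A1, the source of endostatin, rose by 0.24 (limma adjusted p = 0.0118). COL5A2, a chain that sets fibril diameter, rose by 0.22 (limma adjusted p = 0.0301), but its lowest HUWE1 siRNA value of 5.37 TPM lay just under the highest NT value of 5.39 TPM. Its call was lost without HUWE1 siRNA replicate 2, 3 or 4 or NT replicate 2 or 4 (log2 0.18 to 0.22, limma adjusted p = 0.0597 to 0.0840). COL1A1 averaged 10.9 TPM in HUWE1 siRNA libraries and 10.8 TPM in NT libraries, and COL2A1 54.2 TPM in HUWE1 siRNA libraries and 57.1 TPM in NT libraries; neither was called. The 20 tested collagens that were not called had log2 fold changes of both signs.

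Of the MMPs in set 1, the collagenase gene MMP13 had 5.92, 5.47, 5.06 and 6.09 TPM in HUWE1 siRNA libraries, against 3.38, 3.89, 4.04 and 3.71 TPM in NT libraries. It rose by 0.48 ± 0.07 (SE, limma adjusted p = 9.04e-04), the largest difference of log2(TPM + 1) among the members tested in set 1. By the ratio of mean TPM, MMP17 was ahead of MMP13, at 1.61. MMP2 went the other way, with 10.5, 10.3, 10.4 and 11.2 TPM in HUWE1 siRNA libraries and 12.6, 12.1, 12.4 and 12.8 TPM in NT libraries, a log2 change of -0.22 ± 0.04 (SE, limma adjusted p = 0.00271). Neither gene's groups overlapped. The membrane-type MMP17, which is held by a lipid anchor, rose by 0.47 ± 0.12 (SE, limma adjusted p = 0.0141) with 2.32 to 3.82 TPM in HUWE1 siRNA libraries and 1.66 to 2.03 TPM in NT libraries. MMP15, another membrane-type enzyme, rose by 0.23 (limma adjusted p = 0.0238) with overlapping groups, and lost its call without HUWE1 siRNA replicate 2 or 3 (log2 0.20 and 0.23, limma adjusted p = 0.0527 and 0.0632). MMP23B averaged 4.88 ± 0.295 TPM in HUWE1 siRNA libraries and 3.50 ± 0.272 TPM in NT libraries (SD, n = 4 each) and rose by 0.39 ± 0.06 (SE, limma adjusted p = 0.0020). MMP23B overlaps CDK11B on the opposite strand and has a near-identical pseudogene copy, MMP23A, so its level is uncertain.

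Of the 15 tested ADAMTS genes 12 were not called in set 1. ADAMTS7, a protease of cartilage oligomeric matrix protein, rose by 0.26 ± 0.09 (SE, limma adjusted p = 0.0456). ADAMTS13, which cuts von Willebrand factor, averaged 26.3 ± 1.83 TPM in HUWE1 siRNA libraries and 29.7 ± 1.48 TPM in NT libraries (SD, n = 4 each) and fell by 0.17 on the log2 scale (limma adjusted p = 0.031). ADAMTS17 fell by 0.14 (limma adjusted p = 0.0462). Neither of these falls was called under median-of-ratios scaling. The ADAMTS7 call was lost without any single HUWE1 siRNA replicate or NT replicate 2 or 3 (log2 0.19 to 0.28, limma adjusted p = 0.0656 to 0.109), and the ADAMTS13 call without HUWE1 siRNA replicate 1, 3 or 4 or NT replicate 1, 2 or 4 (log2 -0.17 to -0.15, limma adjusted p = 0.0610 to 0.0851). The ADAMTS17 call was lost without HUWE1 siRNA replicate 2, 3 or 4 or any NT replicate (log2 -0.16 to -0.12, limma adjusted p = 0.0529 to 0.120). ADAMTS1, the most abundant of the family, averaged 75.0 TPM in HUWE1 siRNA libraries and 77.0 TPM in NT libraries and was not called.

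**Figure D2:**
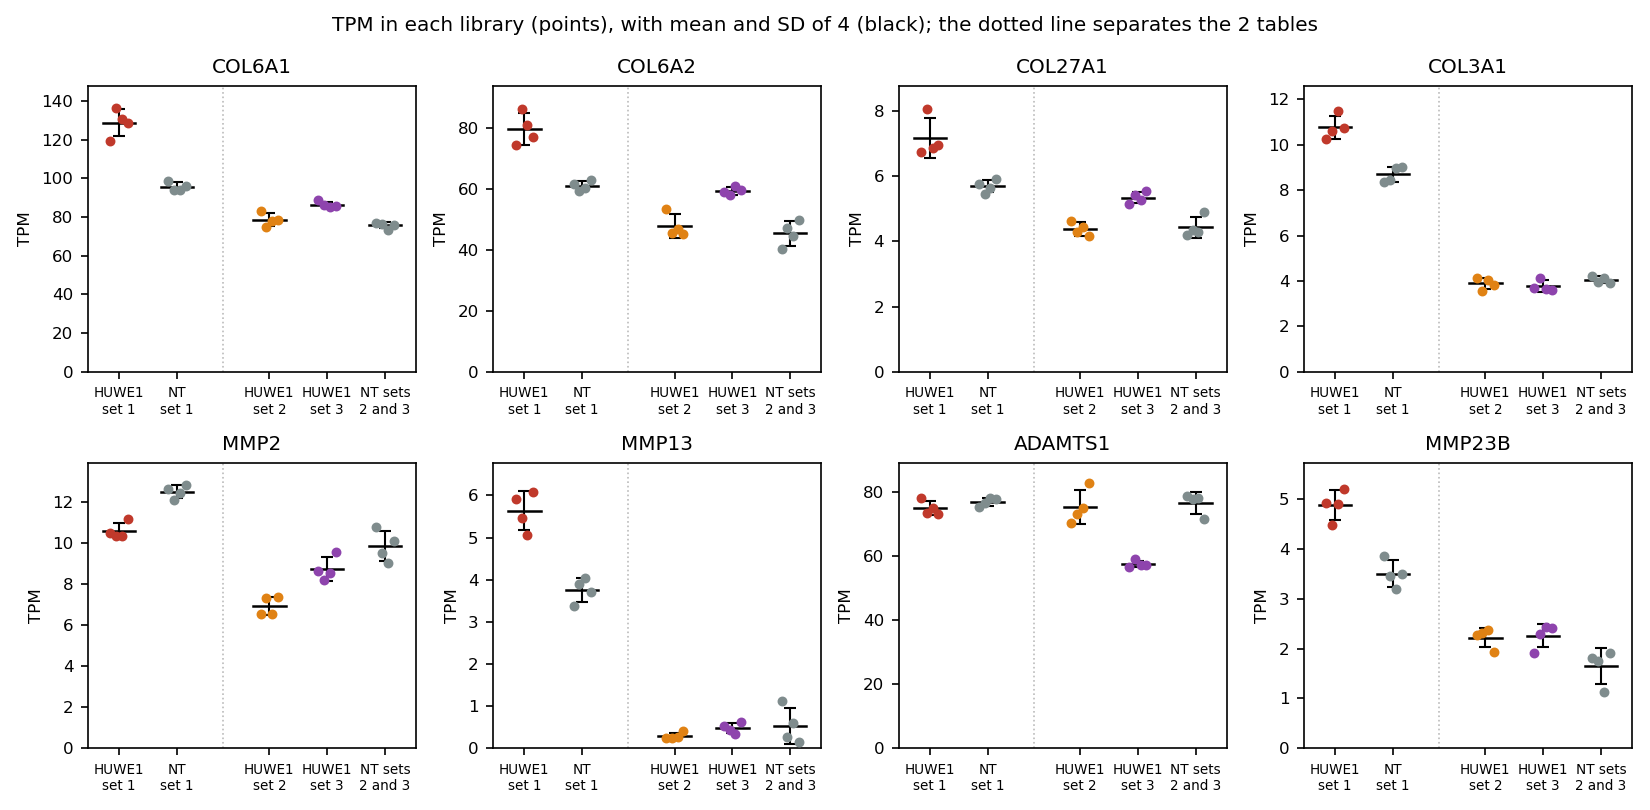
TPM of 8 members in each library (points) with the mean and SD of 4 (black), HUWE1 siRNA left of its NT controls within each table and a dotted line between the tables. COL6A1 and COL6A2 lie above their controls in sets 1 and 3, ADAMTS1 is lower in set 3 at a mean of 57.6 TPM, and MMP2 is lowest in set 2 at a mean of 6.93 TPM.

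In set 2, no member changed by the test. Of the 50 tested members 0 were called, against 0.0126% of 15860 genes, which is 2 genes. Without adjustment, 9 of 50 members had a limma p under 0.05, against 1401 of 15860 genes tested. The 4 values of set 2 lay wholly above the shared NT values for 2 members and wholly below for 5, against 1.99% and 1.71% of all genes tested. MMP2 had 6.56, 7.31, 6.52 and 7.35 TPM in HUWE1 siRNA libraries, against 10.8, 9.504, 9.05 and 10.1 TPM in NT libraries, all 4 below. Its log2 fold change of -0.45 ± 0.07 (SE) had a limma adjusted p of 0.0794, and with mitochondrially encoded genes taken out of the TPM totals the change was -0.47 with an limma adjusted p of 0.0472. COL2A1 had 54.5 to 62.1 TPM in HUWE1 siRNA libraries and 62.5 to 67.1 TPM in NT libraries (log2 -0.16, limma adjusted p = 0.453). COL6A1 and COL6A2 had log2 fold changes of 0.05 ± 0.04 and 0.07 ± 0.07 (SE), with limma adjusted p of 0.665 and 0.721. COL1A1, COL25A1 and ADAMTS2, a protease that removes the amino-terminal propeptide of procollagen, were the other members wholly below their controls, and MMP23B and MMP24 were those above. MMP24 counts among the 2 and the 9 given above, but it had 1 TPM in no NT library and passed the filter through the HUWE1 siRNA libraries. ADAMTS8, at 0.891 to 1.31 TPM in NT libraries, is also among the 9 and met the filter only together with HUWE1 siRNA libraries.

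In set 3, compared with the same 4 NT libraries as set 2, 7 members rose and 3 fell of 50 tested. That is 20.0% called, against 11.6% of the 15860 genes tested, where 7.45% rose and 4.15% fell. Among them 4 collagens rose and 2 fell, 2 ADAMTS genes rose and 1 fell, and 1 MMP rose. That MMP was MMP24, which had 1 TPM in no NT library and passed the filter through the HUWE1 siRNA libraries; without it 9 of 49 were called, or 18.4%. Those 9 still include ADAMTS8, which had 0.891 to 1.31 TPM in NT libraries and met the filter only together with HUWE1 siRNA libraries. The 4 values lay wholly above the controls for 9 members, MMP24 and ADAMTS8 among them, and wholly below for 5, against 11.2% and 6.03% of all genes tested. The median log2 fold change of tested members was 0.01, equal to that of all genes at this precision. The number of members called ran from 2 to 17 when single libraries were left out, and the share of all genes called ran from 1.03% to 37.2%.

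COL6A2 had 58.7, 57.8, 60.7 and 59.4 TPM in HUWE1 siRNA libraries of set 3, against 40.4, 47.1, 44.3 and 49.9 TPM in NT libraries. COL6A1 had 88.6, 86.3, 85.0 and 85.9 TPM in HUWE1 siRNA libraries, against 77.1, 76.3, 73.5 and 76.0 TPM in NT libraries. Both genes lay wholly above their controls. COL6A2 rose by 0.38 ± 0.07 (SE, limma adjusted p = 0.0119) and COL6A1 by 0.19 ± 0.04 (limma adjusted p = 0.0171). The COL6A2 call held with each single library left out, and that of COL6A1 was lost without HUWE1 siRNA replicate 3 or 4 of set 3 or NT replicate 3 (log2 0.17 to 0.20, limma adjusted p = 0.0518 to 0.0594). Summed type VI RNA was 145.3 to 148.5 TPM in HUWE1 siRNA libraries, against 119.2 to 127.1 TPM in NT libraries.

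COL27A1 averaged 5.34 ± 0.178 TPM in HUWE1 siRNA libraries of set 3 and 4.43 ± 0.317 TPM in NT libraries (SD, n = 4 each), a log2 change of 0.23 (limma adjusted p = 0.0354). COL12A1, a fibril-associated chain of tendon and ligament, averaged 9.08 ± 0.447 TPM in HUWE1 siRNA libraries and 7.31 ± 0.546 TPM in NT libraries (SD, n = 4 each), a log2 change of 0.28 (limma adjusted p = 0.028). Both lay wholly above their controls. COL26A1 had 8.47, 9.29, 8.92 and 8.61 TPM in HUWE1 siRNA libraries, against 12.1, 11.1, 11.8 and 9.81 TPM in NT libraries, and its log2 change was -0.31 ± 0.06 (SE, limma adjusted p = 0.0189). COL4A6 had 18.7, 18.3, 17.5 and 17.9 TPM in HUWE1 siRNA libraries, against 20.0, 20.9, 22.03 and 20.7 TPM in NT libraries, a change of -0.20 ± 0.05 (SE, limma adjusted p = 0.0244). Both falling collagens lay wholly below their controls. COL2A1 again lay wholly below its controls, at 58.1 to 61.6 TPM in HUWE1 siRNA libraries and 62.5 to 67.1 TPM in NT libraries, and was not called (log2 -0.12, limma adjusted p = 0.0907).

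ADAMTS1, an aggrecan- and versican-cleaving protease, had the smallest p of the members in set 3. It had 56.6, 59.1, 57.3 and 57.3 TPM in HUWE1 siRNA libraries of set 3, against 78.7, 77.9, 78.2 and 71.5 TPM in NT libraries. Its groups were well apart, and the log2 change was -0.40 ± 0.05 (SE, limma adjusted p = 0.00297), called with each single library left out. The summed RNA of the 19 ADAMTS genes was 126.4 to 135.9 TPM in HUWE1 siRNA libraries, against 146.3 to 167.1 TPM in NT libraries. Most of that difference was ADAMTS1: the mean sum differed by -24.7 TPM, of which ADAMTS1 gave -19.0 TPM and ADAMTS3 -4.05 TPM. Of the 16 ADAMTS genes tested, 8 had positive and 8 negative log2 fold changes in set 3. ADAMTS8, listed near 1 TPM in controls, averaged 1.70 ± 0.252 TPM in HUWE1 siRNA libraries and 1.03 ± 0.196 TPM in NT libraries (SD, n = 4 each) and rose by 0.41 (limma adjusted p = 0.0298). Its NT libraries had 0.891, 1.05, 0.891 and 1.31 TPM, so it met the filter only together with HUWE1 siRNA libraries. ADAMTS16 averaged 3.70 ± 0.177 TPM in HUWE1 siRNA libraries and 2.85 ± 0.355 TPM in NT libraries (SD, n = 4 each) and rose by 0.29 (limma adjusted p = 0.0362). ADAMTS3, a procollagen N-proteinase, had 9.16 to 10.7 TPM in HUWE1 siRNA libraries and 10.2 to 18.8 TPM in NT libraries; the change of -0.42 ± 0.14 (SE) was not called (limma adjusted p = 0.0669), and without NT replicate 4 it was -0.55 with an limma adjusted p of 0.00570. MMP24, a membrane-type MMP, averaged 1.03 ± 0.0677 TPM in HUWE1 siRNA libraries and 0.645 ± 0.0484 TPM in NT libraries (SD, n = 4 each) and rose by 0.30 (limma adjusted p = 0.0484). MMP24OS lies on the opposite strand. MMP2 averaged 8.73 ± 0.592 TPM in HUWE1 siRNA libraries and 9.85 ± 0.741 TPM in NT libraries (SD, n = 4 each), with overlapping groups and no call (limma adjusted p = 0.119).

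The other set 3 calls each depended on single libraries. Without one of them, limma adjusted p reached 0.0637 for COL26A1 (HUWE1 siRNA replicate 3 or 4 of set 3, or NT replicate 3; log2 -0.32 to -0.29) and 0.0803 for COL4A6 (the same libraries or NT replicate 2; -0.20 to -0.17). For COL12A1 it reached 0.0900 (HUWE1 siRNA replicate 1, 3 or 4 of set 3, or NT replicate 1, 2 or 3; 0.25 to 0.30). For ADAMTS8 it reached 0.0866 (any HUWE1 siRNA replicate of set 3, or NT replicate 1, 2 or 3; 0.35 to 0.46), and with HUWE1 siRNA replicate 3 of set 2 added to these libraries it reached 0.105 for COL27A1 (0.21 to 0.24) and 0.106 for ADAMTS16 (0.26 to 0.31). For MMP24 it reached 0.123, with a change of 0.29 to 0.33, and the call held only without HUWE1 siRNA replicate 4 of set 2 or NT replicate 4.

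Set 3 was set directly against set 2 in the same model, which does not involve the NT values other than through the shared spread. ADAMTS1 was the single member called of 50, 2.00% against 0.517% of all genes tested, with 56.6 to 59.1 TPM in set 3 and 70.2 to 82.9 TPM in set 2. Its log2 difference was -0.38 ± 0.05 (SE, limma adjusted p = 0.00683), and with the replicate number as a block the limma adjusted p was 0.0599. COL6A2 was 57.8 to 60.7 TPM in set 3 and 45.2 to 53.4 TPM in set 2 (log2 0.31 ± 0.07, SE, limma adjusted p = 0.0675), without overlap and without a call. MMP2 was 8.20 to 9.58 TPM in set 3 and 6.52 to 7.35 TPM in set 2 (log2 0.29 ± 0.07, SE, limma adjusted p = 0.0724), also without overlap or call. Without adjustment, 13 of 50 members had a limma p under 0.05, against 2507 of 15860 genes tested. The set 3 values lay wholly above those of set 2 for 11 members and wholly below for 5, against 8.13% and 5.05% of all genes tested.

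**Figure D3:**
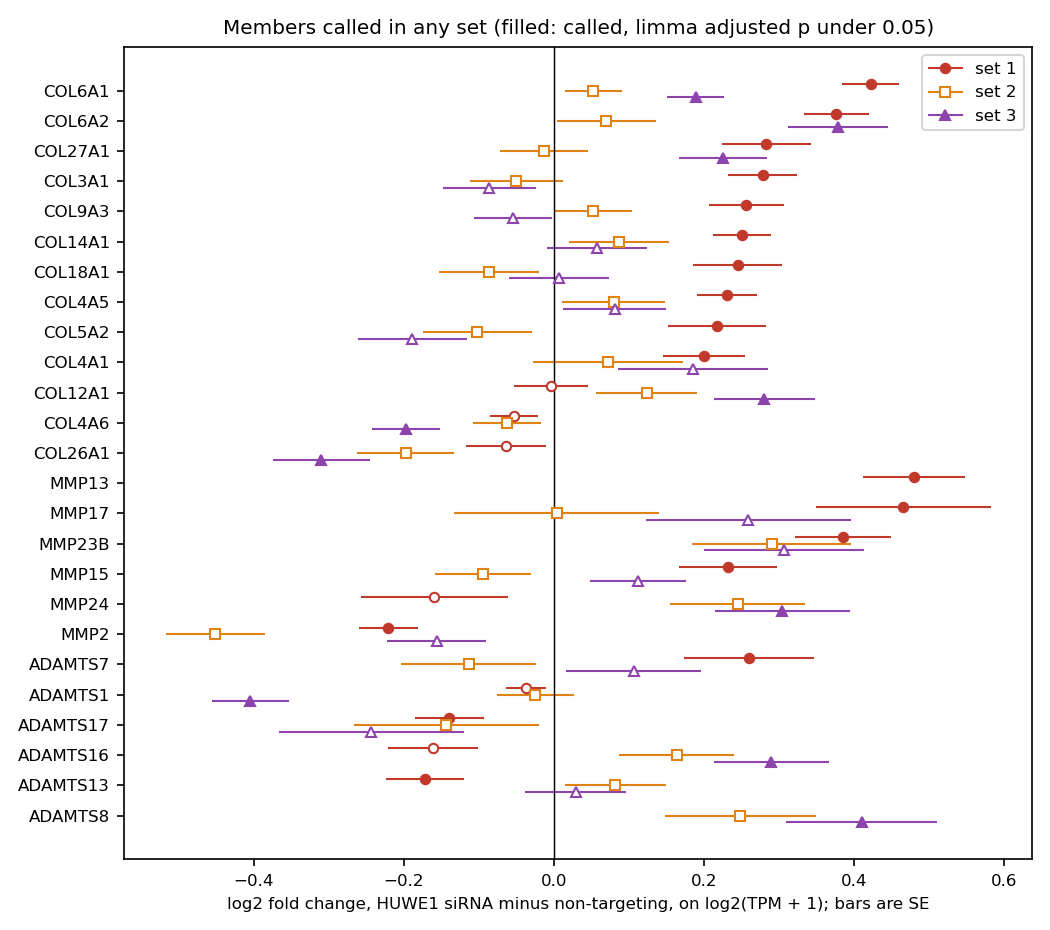
Log2 fold change (HUWE1 siRNA minus NT, on log2(TPM + 1), bars are SE from limma) of the members called in any set, with filled symbols for calls in that set. COL6A1, COL6A2 and COL27A1 are filled in sets 1 and 3, and no member is filled in set 2.

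Sets 1 and 3 have no library in common. Of the 18 members called in set 1 and the 10 called in set 3, COL6A1, COL6A2 and COL27A1 were called in both, all higher, which is 16.7% of the set 1 calls and 30.0% of the set 3 calls. They are 6.12% of the 49 members tested in both sets, and 2.47% of all 15296 genes tested in both were called higher in both. No member was called lower in both or in opposite directions, against 2.05% and 0.601% of those genes. Beside the shares of calls, 4767 of all genes tested in both were called in set 1 and 1813 in set 3. Of these, 378 were higher in both and 314 lower in both. MMP23B was the member whose 4 values lay above the controls in all 3 sets, with log2 fold changes of 0.39, 0.29 and 0.31; only that of set 1 was called, and sets 2 and 3 share their controls. MMP2 had negative fold changes in all 3 sets (-0.22, -0.45 and -0.16), called in set 1. MMP24 and ADAMTS16 lay wholly below their controls in set 1 and wholly above in set 3, and the difference between the tables was not tested. In the second table MMP24 passed the filter only through HUWE1 siRNA libraries.

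Ratios between neighbouring chain genes are given as a description, without a test. COL4A5 over COL4A6 averaged 0.955 ± 0.0375 in HUWE1 siRNA libraries of set 1, against 0.777 ± 0.0437 in NT libraries. It averaged 1.08 ± 0.0507 in set 2 and 1.198 ± 0.0831 in set 3, against 0.979 ± 0.0759 in the shared NT libraries (SD, n = 4 each). In sets 1 and 3 every HUWE1 siRNA ratio was above every control ratio, while in set 2 the lowest, 1.03, lay below the highest control ratio of 1.05. COL4A1 over COL4A2 averaged 0.751 ± 0.0403 in HUWE1 siRNA libraries of set 1 and 0.612 ± 0.0246 in NT libraries (SD, n = 4 each), again without overlap. In the second table that ratio was 0.758 to 0.816 in set 2 and 0.804 to 0.863 in set 3, both overlapping the 0.636 to 0.840 of the shared NT libraries. COL6A1 over COL6A2 averaged 1.62 ± 0.0371 in HUWE1 siRNA libraries of set 1 and 1.57 ± 0.0336 in NT libraries, and 1.46 ± 0.0484 in set 3 against 1.68 ± 0.165 in the shared NT libraries (SD, n = 4 each).

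**Figure D4:**
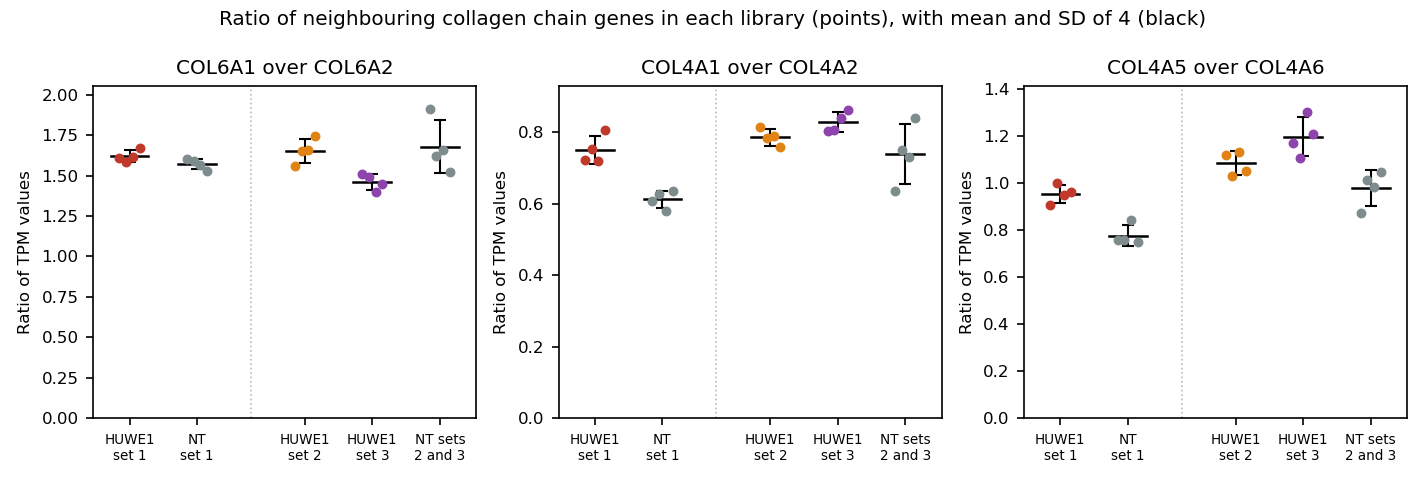
Ratio of TPM values of 3 neighbouring pairs of collagen chain genes in each library (points), with the mean and SD of 4 (black), HUWE1 siRNA left of NT within each table. COL4A5 over COL4A6 is 0.909 to 0.999 in HUWE1 siRNA libraries of set 1 and 0.748 to 0.842 in NT libraries.

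Summed over all 44 genes, collagen RNA was 453.0 to 502.0 TPM in HUWE1 siRNA libraries of set 1, against 405.9 to 425.5 TPM in NT libraries. In the second table it was 367.5 to 404.5 TPM in set 2 and 403.5 to 414.9 TPM in set 3, against 377.3 to 402.0 TPM in the shared NT libraries. Sets 1 and 3 lay above their controls without overlap, set 3 narrowly, and set 2 overlapped. The summed MMP level was 53.3 to 56.0 TPM in HUWE1 siRNA libraries of set 1, against 49.0 to 51.2 TPM in NT libraries. It was 36.4 to 38.9 TPM in set 2 and 39.9 to 44.01 TPM in set 3, against 38.1 to 40.9 TPM in the shared NT libraries, and overlapped in both. In set 1 the fibrillar sum overlapped its controls, at 99.2 to 107.0 TPM in HUWE1 siRNA libraries and 99.3 to 105.5 TPM in NT libraries, while the collagen sum averaged 478.2 TPM in HUWE1 siRNA libraries and 414.7 TPM in NT libraries and the type VI part of it 212.9 TPM in HUWE1 siRNA libraries and 161.4 TPM in NT libraries.

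**Figure D5:**
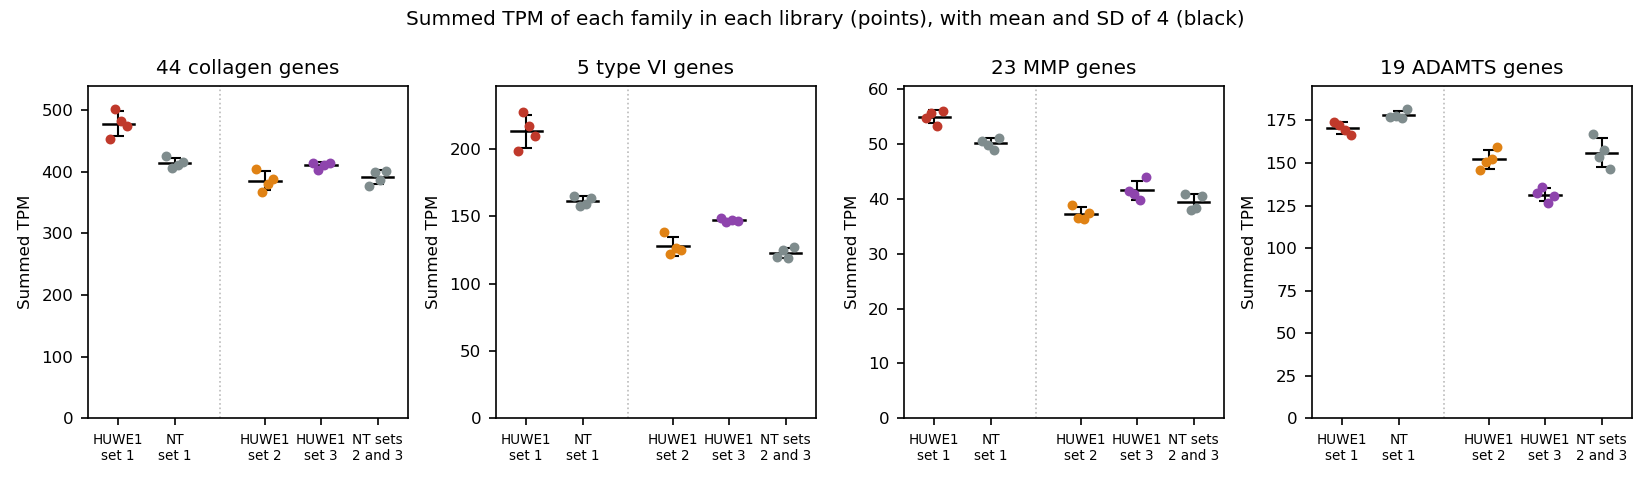
Summed TPM of the collagen genes, the type VI genes among them, the MMP genes and the ADAMTS genes in each library (points), with the mean and SD of 4 (black), HUWE1 siRNA left of NT within each table. The type VI sum is 198.2 to 227.2 TPM in HUWE1 siRNA libraries of set 1 and 157.8 to 165.2 TPM in NT libraries.

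Genes that fold, export, cut and bind collagen were counted from lists made by function. Their counts stand beside 12.3% of all tested genes that rose and 17.9% that fell in set 1, and 7.45% and 4.15% in set 3. Of 19 tested genes for collagen folding and modification, 1 rose and 6 fell in set 1 (median log2 fold change -0.05), and 0 rose and 2 fell in set 3 (median -0.04). P3H1, a prolyl 3-hydroxylase, rose to 20.7 ± 0.639 TPM in HUWE1 siRNA libraries of set 1, against 18.1 ± 0.493 TPM in NT libraries (SD, n = 4 each; log2 0.18, limma adjusted p = 0.00388). PLOD3, a lysyl hydroxylase, had 21.8 ± 1.70 TPM in HUWE1 siRNA libraries and 26.3 ± 0.503 TPM in NT libraries (SD, n = 4 each) and changed by -0.26 (limma adjusted p = 0.00395). The chaperones PPIB and P4HB fell by 0.12 and 0.11 on the log2 scale in set 1. Under median-of-ratios scaling the count in set 1 was 2 higher and 3 lower.

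Of the genes for export, propeptide cleavage and crosslinking, 5 rose and 3 fell of 22 in set 1, and 3 rose and 2 fell of 21 in set 3, where 30.3% and 11.6% of all genes tested were called in either direction. PAPLN, an ADAMTS-like matrix protein, rose by 0.35 in set 1, MIA3, the cargo receptor for procollagen, by 0.13 and ADAMTSL4, a fibrillin-binding protein, by 0.28, while the lysyl oxidase LOXL3 changed by -0.26. In set 3 the lysyl oxidases LOXL4 and LOXL1 rose by 0.50 and 0.37, PCOLCE2, a procollagen proteinase enhancer, rose by 0.30, and the coat protein gene SEC13 changed by -0.21.

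Of the inhibitors and activators of these proteases, 4 rose and 3 fell of 12 in set 1, and 3 rose and 1 fell of 11 in set 3. PLAU, urokinase, which feeds plasmin to MMP activation, had 5.62 ± 0.449 TPM in HUWE1 siRNA libraries of set 1 and 8.14 ± 0.349 TPM in NT libraries (SD, n = 4 each), a log2 change of -0.47 (limma adjusted p = 4.88e-04). In set 3 it had 3.78 ± 0.258 TPM in HUWE1 siRNA libraries and 5.44 ± 0.413 TPM in NT libraries (SD, n = 4 each), a change of -0.43 (limma adjusted p = 0.0137). RECK, a membrane-bound MMP inhibitor, and the convertase PCSK5 rose by 0.33 and 0.25 in set 1. In set 3 TIMP2 and TIMP3, inhibitors of MMPs and of ADAMTS enzymes, rose by 0.19 and 0.21, and the convertase PCSK6 by 0.27.

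In the list of collagen receptors, DDR1, DDR2, ITGA1, ITGA2 and ITGB1 were not called in set 3 (limma adjusted p = 0.219 to 0.693). Over the whole list, 0 of 7 tested genes were called in set 1 and 1 of 6 in set 3. That gene was CD44, which binds hyaluronan and docks MMPs at the surface: it averaged 5.53 ± 0.290 TPM in HUWE1 siRNA libraries of set 3, against 2.84 ± 0.228 TPM in NT libraries (SD, n = 4 each), a log2 change of 0.77 (limma adjusted p = 6.50e-04), and it was higher in set 3 than in set 2 by 0.47 (limma adjusted p = 0.0220). Of the matrix genes that work beside collagens, 6 rose and 7 fell of 23 in set 1, and 3 rose and 2 fell of 20 in set 3, again beside 30.3% and 11.6% of all genes called. The proteoglycan ACAN had 1.97 ± 0.206 TPM in HUWE1 siRNA libraries of set 1 and 3.57 ± 0.341 TPM in NT libraries (SD, n = 4 each), a log2 change of -0.62; VCAN and the laminin chain LAMC1 rose by 0.18 and 0.14. TNC, tenascin-C, fell by 0.36 on the log2 scale in set 1 and rose by 0.29 in set 3, and that difference between the tables was not tested. In set 3 LAMA3 rose by 0.43, while NID2 and FBN2 changed by -0.32 and -0.28. In set 2, no gene of these lists was called, at a background of 0.0126%. None of the list genes named here lost its call or changed direction under median-of-ratios scaling or without mitochondrially encoded genes. For list genes the other alternatives, such as single libraries left out, are not reported here. With single libraries left out, the set 3 calls over all genes ran from 163 to 5878, so the set 3 list calls may also depend on single libraries.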

How the data were processed

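Poly(A) RNA of 20 HEK293T libraries was sequenced with a stranded kit, per the labels' protocols. TPM (length-scaled transcript abundance) was deposited by the authors in 2 tables that were normalized separately. The submitters' processing notes name hg38 as the build. No source used here names the aligner, the counting tool or the gene models. TPM keeps no record of depth, which is therefore unknown, and counting intervals were not possible. All per-sample columns were used.

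A gene entered the test where 4 or more libraries of its table had at least 1 TPM. Tests were made on log2(TPM + 1) with limma 3.58.1 (variance trend) in R 4.3.3, in set 1 on 8 libraries (16057 genes) and in sets 2 and 3 in 1 model of 12 (15860 genes), with Benjamini-Hochberg adjustment over all of them and calls under 0.05. Fold changes on this scale understate changes of low genes. HUWE1 also had an exact permutation test. A 2-group form of the procedure was run on simulated data with independent noise, and its outcome is not reported here. The model of 12 libraries was not simulated. Of 86 members, 55 and 50 passed the filter in the first and second table, and 51 and 47 had 1 TPM or more in every library. MMP24 passed in the second table without any control library at 1 TPM. ADAMTS8 passed there only together with HUWE1 siRNA libraries, as its controls had 0.891 to 1.31 TPM.

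Members and lists were chosen with earlier results of these data known. Named members are those called in any comparison, the 12 most abundant in the controls of either table, and those whose groups did not overlap, in one direction, in 2 sets; from each list up to 4 called genes per comparison with the smallest p are named, and 1 list gene that this rule names is not reported here. Coordinates are from GENCODE release 29 (all 86 members matched) and upstream sequences from RefSeq. The distances given between annotated starts of type IV genes do not match the ends of the GENCODE gene spans. Python 3.11.15 with scipy 1.17.1 and pandas 2.3.3 was used for tables. Alternatives were a pseudocount of 0.1, no filter, median-of-ratios scaling, totals without mitochondrially encoded genes, only the 2 groups compared, a block for the replicate number, each library left out, and, chosen after seeing the data, both shared NT libraries 1 and 4 left out.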

Additional observations from a re-analysis of the deposited data

Results flagged for a closer look

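Of 145 groups of 4 libraries examined, one each for the groups of HUWE1 and the named members, 10 had a library whose value stood apart from the other 3 by Dixon's criterion; chance flags about 1 in 20. MMP24 had 3 of them, at 0.617 TPM in HUWE1 siRNA replicate 2 of set 1, 0.704 TPM in HUWE1 siRNA replicate 4 of set 2 and 1.21 TPM in NT replicate 1 of set 1. COL27A1 was high at 8.06 TPM in HUWE1 siRNA replicate 2 of set 1, COL3A1 at 4.15 TPM in HUWE1 siRNA replicate 2 of set 3, and MMP13 at 0.404 TPM in HUWE1 siRNA replicate 4 of set 2. ADAMTS8 was high at 0.951 TPM in NT replicate 2 of set 1. In the shared NT libraries, ADAMTS1 was low at 71.5 TPM and COL12A1 high at 8.13 TPM in replicate 4, and COL4A5 was low at 17.5 TPM in replicate 1.

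The response of ADAMTS1 differed between sets 3 and 2 by -0.38 on the log2 scale, in the limma test of that difference (adjusted p = 0.00683). For 2 genes the groups of both tables did not overlap and moved in opposite directions, a difference that was not tested. ADAMTS16 had a log2 fold change of -0.16 in set 1 and 0.29 in set 3. MMP24 had -0.16 in set 1, 0.24 in set 2 and 0.30 in set 3, and in sets 2 and 3 it passed the filter only through HUWE1 siRNA libraries.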

How the results depend on the processing

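In set 1, 18 members were called, and between 13 and 16 when each library was left out in turn; 12 of the 18 kept their call under every alternative tried, and no call reversed. In set 2 the count was 0 under every alternative except without mitochondrially encoded genes, where 1 member (MMP2, lower) was called. In set 3 the count of 10 moved to 4 with the replicate number as a block, to 3 with only the 2 groups compared, and to between 2 and 17 with each library left out. It was 2 without NT replicate 3 or HUWE1 siRNA replicate 3 or 4 of set 3, 4 without NT replicate 2, 5 without NT replicate 1 or HUWE1 siRNA replicate 1 of set 3, 6 without HUWE1 siRNA replicate 2 of set 3, and 17 without NT replicate 4. With NT replicates 1 and 4 both left out, chosen after seeing the data, it was 12. ADAMTS1 and COL6A2 were called under every setting. In set 3 against set 2 the count of 1 moved to 0 with the block, 3 with only the 2 groups compared, 4 without NT replicates 1 and 4, and 1 to 3 with each library left out (3 without NT replicate 1, 2 without NT replicate 4 or HUWE1 siRNA replicate 1 of set 2). The cause of these movements was not tested. The HUWE1 log2 change stayed at -0.89 to -0.86 in set 1, -0.79 to -0.77 in set 2 and -0.97 to -0.91 in set 3 with each library left out, and the difference of set 3 from set 2 at -0.19 to -0.13. Same-numbered libraries were compared after each group's gene means were taken out. These residual values correlated at 0.00 to 0.05 in set 1, -0.48 to 0.04 in set 2 and -0.03 to 0.41 in set 3. In set 3, replicates 1 and 4 correlated more with their own number (0.20 and 0.41) than with any other (at most 0.11 and -0.07). Replicates 2 and 3 of set 3 correlated more with another number. The numbers were not treated as pairs, and the block is an alternative only. Over all genes, 4863 were called in set 1 (1983 higher and 2880 lower; 2458 and 2408 under median-of-ratios scaling; 3911 in all without a filter). In set 3, 1839 were called (1181 higher and 658 lower; 922 and 965 under median-of-ratios scaling, 686 and 864 without mitochondrially encoded genes), 693 with the block, 360 with only the 2 groups compared, 698 without a filter, 3245 without NT replicates 1 and 4, and 163 to 5878 with each library left out. Depth is unknown, and values near 1 TPM cannot be given a counting error.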
